A study of Homo sapiens with 4 samples.

Results

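The expression of 4 epithelial genes, EPCAM, KRT18, KRT8 and KRT5, was examined in Hut78, an established cell line derived from a human cutaneous T-cell lymphoma. They were chosen by symbol, with EPCAM already known to be bright on these arrays, so their intensities are given as a description and were not tested. The members are all 5 probe sets annotated to these symbols, among 53617 probe sets, and the 4 genes among 14884 named genes. One group was exposed to the compound CSH71, which the series presents as a chemical against the lipid-binding domain of the kinase p38γ, at 250 nM for 30 h, and the other was untreated, with no vehicle named. Both groups were Hut78 cells grown in serum-containing IMDM, and each had 2 samples, 1 Affymetrix whole-transcript array per sample. Whether the duplicates were separate cultures is not stated, so the p-values reflect only how far these samples scatter, and that scatter may be technical.

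EPCAM is a transmembrane adhesion molecule of epithelia. It is cut by ADAM proteases and γ-secretase, and the released intracellular fragment can act with FHL2, β-catenin and LEF1 in the nucleus. Keratins form intermediate filaments in which a type I chain pairs with a type II chain. KRT18 (type I) and KRT8 (type II) are the usual pair of simple epithelia, and KRT5 (type II) pairs with KRT14 in the basal layer of stratified epithelia. In lymphocytes, the usual cytoplasmic intermediate filament protein is vimentin.

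EPCAM was bright on all 4 arrays. Of the 2 probe sets annotated to KRT18, 1 was bright and the other lay near the median gene, and whether either measures KRT18 or a pseudogene copy of it was not tested. KRT8 and KRT5 lay below the median gene on every array. None of the 4 genes passed the test between CSH71-treated and untreated cells, and the fitted differences of EPCAM, KRT8 and the brighter KRT18 probe set lay within 0.036 of 0 on the log2 scale, against -0.28 for the dimmer KRT18 probe set. Brightness is described here by a gene's percentile among the 14884 named genes of the same array. The intensity of a probe set also depends on its probes, so percentiles do not rank the amounts of different RNAs. No background level or detection call accompanied the values, and no gene is called present or absent.

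EPCAM had intensities of 1943 and 2169 on the CSH71 arrays, against 2087 and 2036 on the untreated arrays. Both untreated values lay between the treated ones, so the groups overlapped completely. The means were 2056 ± 160 in CSH71-treated cells and 2062 ± 36.2 in untreated cells (SD, n = 2 each), and EPCAM stood between the 95.7th and the 96.7th percentile of the 4 arrays. The CSH71 minus untreated difference in log2(intensity + 16) was -0.0061 ± 0.17 (SE), and the 95% interval ran from -0.41 to 0.40 on that scale (limma adjusted p = 0.999). This interval corresponds to 0.753-fold to 1.32-fold. The CSH71 replicates differed from each other by 0.16 and the untreated replicates by 0.036 on the log2 scale, against medians over all genes of 0.19 and 0.22.

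KRT18, the type I keratin of simple epithelia, had 2 probe sets that gave different pictures. The brighter one, used for the gene in the fit, had intensities of 467 and 560 on the CSH71 arrays and 576 and 478 on the untreated arrays, between the 73.8th and the 79.2nd percentile. Its groups overlapped. The means were 513 ± 65.8 with CSH71 and 527 ± 69.5 without (SD, n = 2 each). The log2 difference was -0.036 ± 0.19 (SE), and the 95% interval ran from -0.49 to 0.42 (limma adjusted p = 0.999).

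The other KRT18 probe set had 155 and 126 with CSH71, against 168 and 177 in untreated cells, near the middle of the named genes (47.1st to 55.6th percentile). Here both treated arrays lay below both untreated arrays, as did 13.8% of all probe sets. Its log2 difference in a fit of all 53617 probe sets was -0.28 ± 0.20 (SE), and the 95% interval ran from -0.75 to 0.20 (limma adjusted p = 1). With the mean of both probe sets the difference was -0.16. The KRT18 result therefore depends on the probe set for its brightness, its size and whether the groups overlap, and neither probe set passed the test.

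KRT8, the type II partner of KRT18, had intensities of 110 and 97.5 on the CSH71 arrays and 90.9 and 119 on the untreated arrays. The treated values fell between the untreated ones. With means of 104 ± 9.07 in CSH71-treated and 105 ± 19.6 in untreated cells (SD, n = 2 each), KRT8 stood between the 37.1st and the 46.7th percentile. The log2 difference was -0.0027 ± 0.19 (SE), and the 95% interval ran from -0.46 to 0.45 (limma adjusted p = 0.9999).

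KRT5, the basal type II keratin, had 116 and 98.0 with CSH71, against 99.5 and 81.3 without. The lower treated array lay just under the higher untreated one, so the groups overlapped. The means were 107 ± 12.6 in CSH71-treated and 90.4 ± 12.9 in untreated cells (SD, n = 2 each), at the 36.3rd to 45.7th percentile. Its fitted difference was 0.21 ± 0.19 on the log2 scale (SE), and the 95% interval ran from -0.23 to 0.65 (limma adjusted p = 0.999). It kept a positive sign in each of the 15 alternative settings tried. All of these reuse the same arrays, and several cannot change the estimate, so the sign adds no support for a difference.

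**Figure D1:**
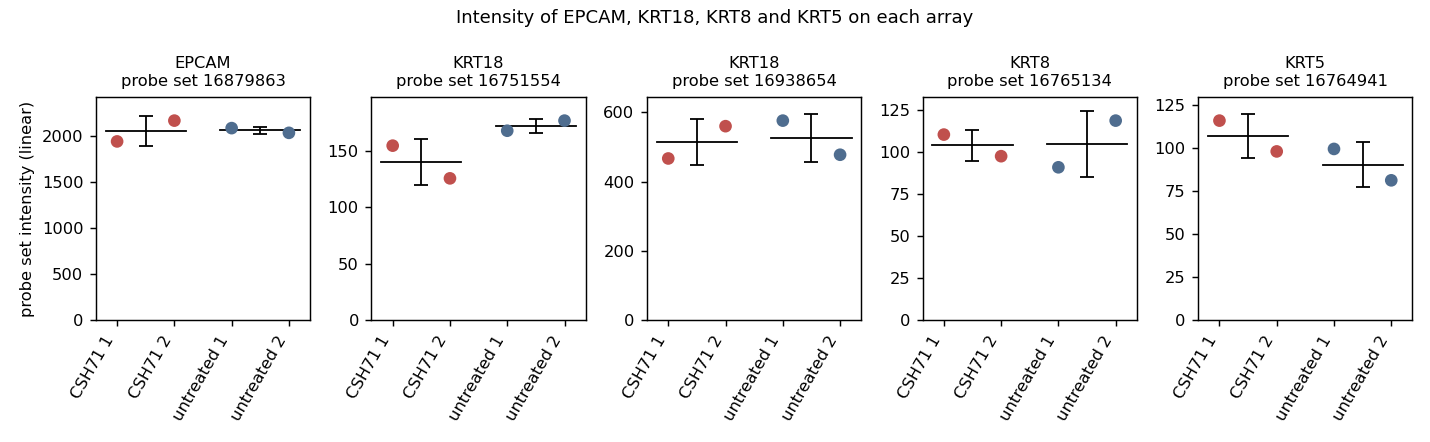
Linear intensity (vertical axes, from 0) of the 5 probe sets of EPCAM, KRT18, KRT8 and KRT5 on the 2 CSH71 arrays (red) and the 2 untreated arrays (blue); horizontal lines are group means and bars are SD. EPCAM lies between 1943 and 2169, the groups overlap in 4 of the 5 panels, and only the dimmer KRT18 probe set has both CSH71 arrays below both untreated arrays.

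Of the 14884 genes, 0.0470% were called at a limma adjusted p under 0.05 (0.0403% higher and 0.00672% lower with CSH71), so 0 of 4 called is near the background. The interval of each of the 4 genes left out a 2-fold difference in signal in either direction. For KRT8 and KRT5, which were dimmer than the median gene, this does not bound the change of their RNA, since no background level is known. KRT8 and KRT18 are also genes with many processed copies: the RefSeq table lists 52 KRT8 pseudogenes and 68 KRT18 pseudogenes by symbol, and whether these probe sets measure such transcripts beside or in place of KRT8 and KRT18 was not tested. A named probe set was available for 1 of each. KRT18P55 had intensities of 125 and 126 with CSH71 and 165 and 120 without, and KRT8P41 had 36.1 and 30.4 with CSH71 and 21.8 and 32.9 without.

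The other keratins were mostly dim. Of 52 listed, 44 were measured, and KRT10 and KRT16 alone were brighter than the median gene on all 4 arrays, where 45.4% of all genes were. KRT10, a keratin of differentiating epidermis, had 507 and 454 with CSH71 and 578 and 513 without, up to the 79.2nd percentile. KRT16, a keratin induced in stressed and proliferating epidermis, had 229 and 263 with CSH71 and 195 and 233 without. Among these other keratins, the defining epithelial markers KRT19, KRT7 and KRT14 were all dim. KRT19 had 31.2 and 62.0 with CSH71 and 58.6 and 42.8 without, and KRT7 had 42.6 and 40.9 with CSH71 and 36.5 and 61.3 without. KRT14, the partner of KRT5, had 75.9 and 71.03 with CSH71 and 83.5 and 54.5 without. The median over the 44 keratins was 49.7 and 59.9 on the CSH71 arrays and 57.0 and 54.7 on the untreated arrays.

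Counting all 47 measured keratins, KRT18, KRT8 and KRT5 included, 3 of 26 type I genes and 0 of 21 type II genes were brighter than the median gene on every array. The 3 were KRT10, KRT16 and KRT18, and KRT18 counted through its brighter probe set alone: by the dimmer one, at the 47.1st to 55.6th percentile, it would not. KRT8 and KRT1, the usual type II partners of KRT18 and KRT10, were below the median gene on all 4 arrays, with KRT1 at 28.6 and 35.4 with CSH71 and 30.5 and 33.6 without.

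None of the 44 other keratins was called, and 21 had a positive and 23 a negative difference. Their median log2 difference was -0.0043, against -0.010 over all genes. The smallest p-values belonged to KRT15 and KRT32. KRT15, a basal and hair-follicle keratin, had 7.07 and 30.4 with CSH71 and 67.7 and 38.6 without, a log2 difference of -1.05 ± 0.36 (SE; limma adjusted p = 0.927). Its size rests on CSH71 replicate 1: without that array the difference was -0.54, and without CSH71 replicate 2 it was -1.55 (adjusted p = 0.0312), a comparison in which the lone treated array was assumed to vary like the untreated pair. KRT32, a hair keratin, had 48.5 and 57.5 with CSH71 and 35.0 and 28.2 without, a log2 difference of 0.54 ± 0.18 (SE; limma adjusted p = 0.927). Both are far below the median gene.

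The values of dim keratins varied from array to array. Of the 44 other keratins, 42 were not above the median gene on all arrays, and KRT8 and KRT5 are not counted among these. Of the 42, 19 had their highest value on CSH71 replicate 2 and 11 on untreated replicate 1. The highest value lay on CSH71 replicate 1 for 5 and on untreated replicate 2 for 7. As shares, CSH71 replicate 2 held the highest value of 45.2% of these keratins and of 32.8% of all genes so dim. For untreated replicate 1 the shares were 26.2% and 27.3%. They were 11.9% and 20.0% for CSH71 replicate 1, and 16.7% and 20.0% for untreated replicate 2. An uneven split between arrays was thus also seen over all genes so dim. CSH71 replicate 2 and untreated replicate 1 also had the higher median intensities over all probe sets, 81.1 and 77.5, against 73.6 and 71.5 for CSH71 replicate 1 and untreated replicate 2. The part of this in the keratin values was not tested beyond the settings given in the closing section.

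**Figure D2:**
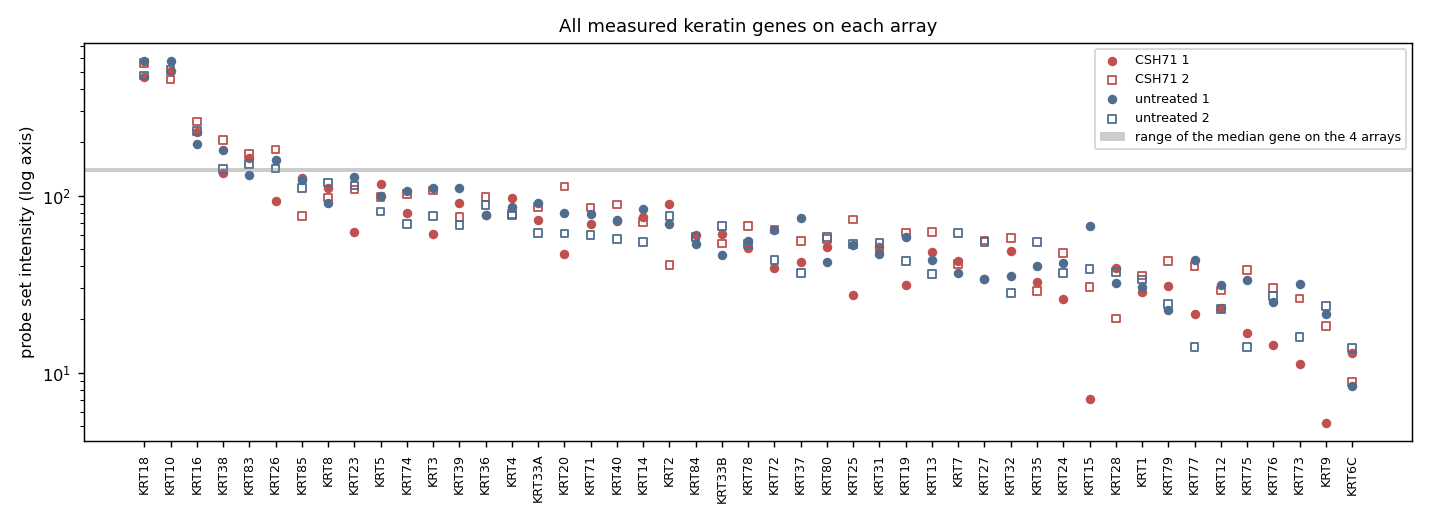
Intensity (log axis) of all 47 measured keratin genes on each array, ordered by mean brightness; red marks CSH71, blue untreated, filled circles replicate 1 and open squares replicate 2, and the grey band spans the median gene of the 4 arrays (135 to 143). KRT18 (by its brighter probe set), KRT10 and KRT16 lie above the band on all arrays, KRT8 and KRT5 below it, and red and blue markers are interleaved for most genes.

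Of genes that act with EPCAM or cut it, 9 of 14 measured (19 listed) were above the median gene on all 4 arrays, where 45.4% of all genes were. CD9, PSEN2, ST14 and TSPAN8 were below the median gene on all 4 arrays. LEF1, a transcription factor of Wnt signalling that T cells also use, had 3253 and 3234 with CSH71 and 3808 and 3791 without. Its treated arrays lay below its untreated ones, as for 16.6% of all genes, and its log2 difference was -0.23 ± 0.16 (SE; limma adjusted p = 0.999). CD44, a hyaluronan receptor, had 1448 and 1541 with CSH71 and 1450 and 1358 without.

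None of the 14 was called, with 8 positive and 6 negative differences and a median of 0.052. FHL2, the LIM-domain partner of the EPCAM fragment, had 482 and 396 with CSH71 and 256 and 289 without. Both treated arrays were higher, as for 15.0% of all genes, and the log2 difference was 0.66 ± 0.19 (SE), with an interval of 0.22 to 1.10, but it did not pass over all genes (limma adjusted p = 0.927). ADAM17, a protease that can cleave EPCAM, had 531 and 579 with CSH71 and 403 and 469 without, a difference of 0.34 ± 0.18 (SE; limma adjusted p = 0.999). CLDN7, a claudin that binds EPCAM, lay close to the median gene, with 135 and 116 with CSH71 and 134 and 153 without.

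Among genes of epithelial junctions, 6 of 22 measured (29 listed) were above the median gene on all 4 arrays, against 45.4% of all genes. The brightest were plaque proteins of desmosomes: JUP (plakoglobin), with 1655 and 1474 with CSH71 and 1487 and 1608 without, and PKP2 (plakophilin), with 1638 and 1283 with CSH71 and 1678 and 1888 without. Other desmosomal genes of the list were mostly dim. DSP had 40.7 and 32.1 with CSH71 and 55.2 and 40.2 without. DSC2, DSC3, DSG2, DSG3 and PKP1 were also below the median gene on all 4 arrays, whereas PKP3 was above it. CLDN3, a tight-junction claudin, had 664 and 507 with CSH71 and 535 and 424 without. CLDN4, another claudin, was dim at 41.4 and 44.1 with CSH71 and 39.8 and 27.7 without.

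None of the 22 junction genes was called, with 11 positive and 11 negative differences and a median of 0.0039. The members with the smallest p were CLDN6, at a log2 difference of -0.32 ± 0.16, and DSC3, a desmosomal cadherin, at 0.47 ± 0.27 (SE; limma adjusted p = 0.999 for both). CDH1, the epithelial cadherin, was not analysed here.

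Of the epithelial transcription and splicing factors, 4 of 14 measured (19 listed) were above the median gene on all 4 arrays, against 45.4% of all genes. ESRP1, a splicing regulator of epithelial isoforms, was the brightest of them, with 1253 and 1193 with CSH71 and 1249 and 1384 without, at the 91.0th to 91.9th percentile. The next brightest were KLF5, at 269 and 201 with CSH71 and 195 and 203 without, and GRHL1, at 211 and 158 with CSH71 and 158 and 174 without. GRHL2, a regulator of epithelial junction genes, had 90.6 and 101.4 with CSH71 and 104 and 59.1 without.

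None of the 14 factors was called, with 9 positive and 5 negative differences and a median of 0.038. GRHL3, a grainyhead-like factor of the epidermis, had 13.4 and 19.2 with CSH71 and 34.2 and 36.9 without, a log2 difference of -0.68 ± 0.18 (SE; limma adjusted p = 0.927) at very low intensity. OVOL2, a repressor of mesenchymal genes, had a difference of -0.24 ± 0.17 (SE; limma adjusted p = 0.999).

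Over the 4 epithelial lists together, 94 of 119 genes were measured, and 21 of them (22.3%) were brighter than the median gene on all 4 arrays, against 45.4% of all genes. Of these 21, 9 came from the list of genes that act with EPCAM or cut it. That list is not one of epithelial markers and holds genes such as LEF1, which T cells also use. Beyond the 90th percentile on all arrays were 6 of the 94, LEF1, CD44, ADAM10, JUP, PKP2 and ESRP1, against 8.82% of all genes. The first 3 of these came from that same list. By limma, 0 of the 94 were called and 4 had an unadjusted p under 0.05 (KRT15, KRT32, FHL2 and GRHL3), where 5.11% of all genes had one. The groups did not overlap for 10 genes higher and 11 genes lower with CSH71, against 15.0% and 16.6% of all genes.

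**Figure D3:**
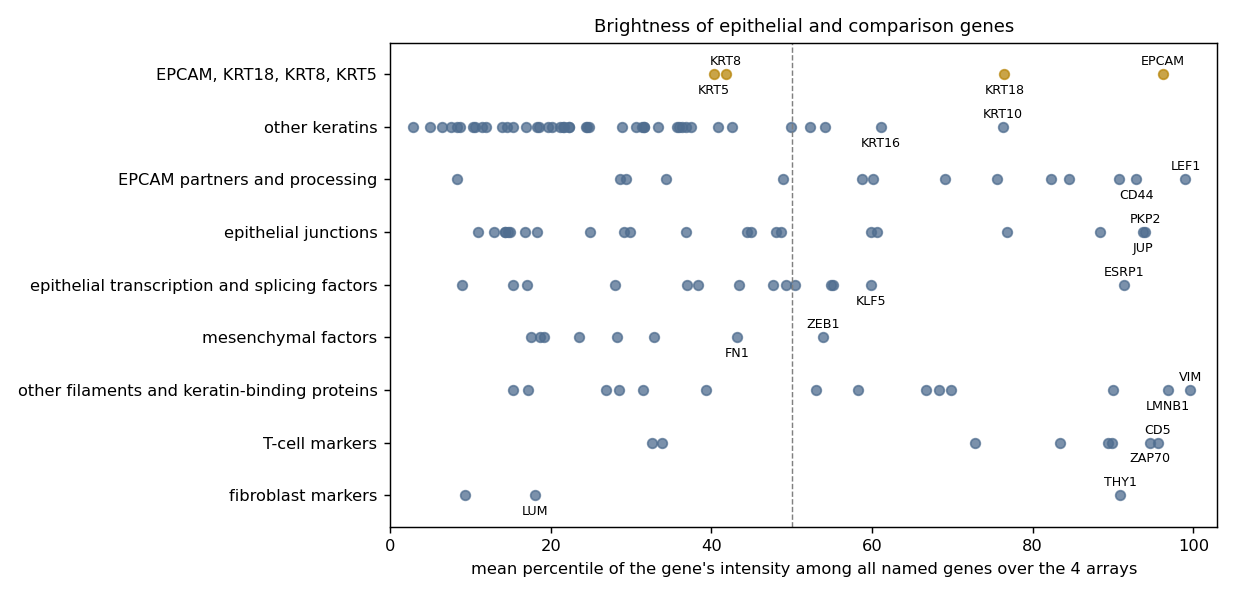
Each point is a gene, placed by the mean over the 4 arrays of its intensity percentile among the 14884 named genes (horizontal axis); rows are the 4 genes (gold) and the 8 lists (blue), the dashed line is the 50th percentile, and the brightest genes of each row are named. EPCAM lies toward the right edge, closest to LMNB1 and CD5, with VIM and LEF1 further right and ZAP70, PKP2 and JUP further left. Most keratins lie left of the line.

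The labelled cell type was checked against T-cell genes. Of 8 measured (12 listed), 6 were above the median gene on all 4 arrays, against 45.4% of all genes, and CD2 and CD28 were not. CD5 had 2100 and 1986 with CSH71 and 1729 and 1802 without, ZAP70 had 1829 and 1577 with CSH71 and 1708 and 1739 without, and CD4 had 441 and 384 with CSH71 and 403 and 452 without. CD2 had 60.9 and 85.1 with CSH71 and 91.6 and 66.8 without. CD3D, CD3E, CD3G and PTPRC were not analysed here. None was called. The members with the smallest p were CD247, at a log2 difference of -0.30 ± 0.18, and CD5, at 0.21 ± 0.17 (SE; limma adjusted p = 0.999 for both).

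VIM, the intermediate filament gene usual in lymphocytes, lay between the 99.6th and the 99.7th percentile by the brightest of its 3 probe sets. That probe set had 4965 and 4638 with CSH71 and 4794 and 4845 without. LMNB1, a nuclear lamin, had 2177 and 2068 with CSH71 and 2211 and 2467 without. None of the 14 other filament and keratin-binding genes measured (18 listed) was called, with 2 positive and 12 negative differences and a median of -0.089. Over all genes, 7134 differences were positive and 7747 negative, with a median of -0.010. How far the split of this list rests on single arrays was not tested. EPPK1 (epiplakin), which binds keratin filaments, had 52.3 and 47.6 with CSH71 and 25.7 and 31.1 without, a log2 difference of 0.57 ± 0.17 (SE; limma adjusted p = 0.927). LMNA, another lamin, had a difference of 0.33 ± 0.18 (SE; limma adjusted p = 0.999). The plakin gene EVPL and the lamin gene LMNB2 were brighter than the median gene, with EVPL at 323 and 371 with CSH71 and 360 and 359 without, and LMNB2 at 1147 and 1117 with CSH71 and 1182 and 1136 without.

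Of the mesenchymal factors, 8 of 9 were measured, 0 were above the median gene on all 4 arrays (45.4% of all genes were) and 0 were called. ZEB1, a repressor of epithelial genes that T cells also express, had 210 and 149 with CSH71 and 132 and 190 without. SNAI2, another such repressor, had 35.2 and 38.9 with CSH71 and 63.3 and 38.7 without. SNAI1 had a log2 difference of 0.52 ± 0.30 (SE; limma adjusted p = 0.999), and TCF4 had 76.6 and 76.9 with CSH71 and 81.2 and 69.2 without. Of the fibroblast markers, 3 of 7 were measured and 0 were called. The matrix genes LUM and DCN were dim, with LUM at 45.8 and 48.5 with CSH71 and 41.0 and 41.6 without (log2 difference 0.14 ± 0.17), whereas THY1, a surface glycoprotein of several cell types, had 1161 and 1111 with CSH71 and 1256 and 1366 without (-0.20 ± 0.17; SE, limma adjusted p = 0.999 for both).

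**Figure D4:**
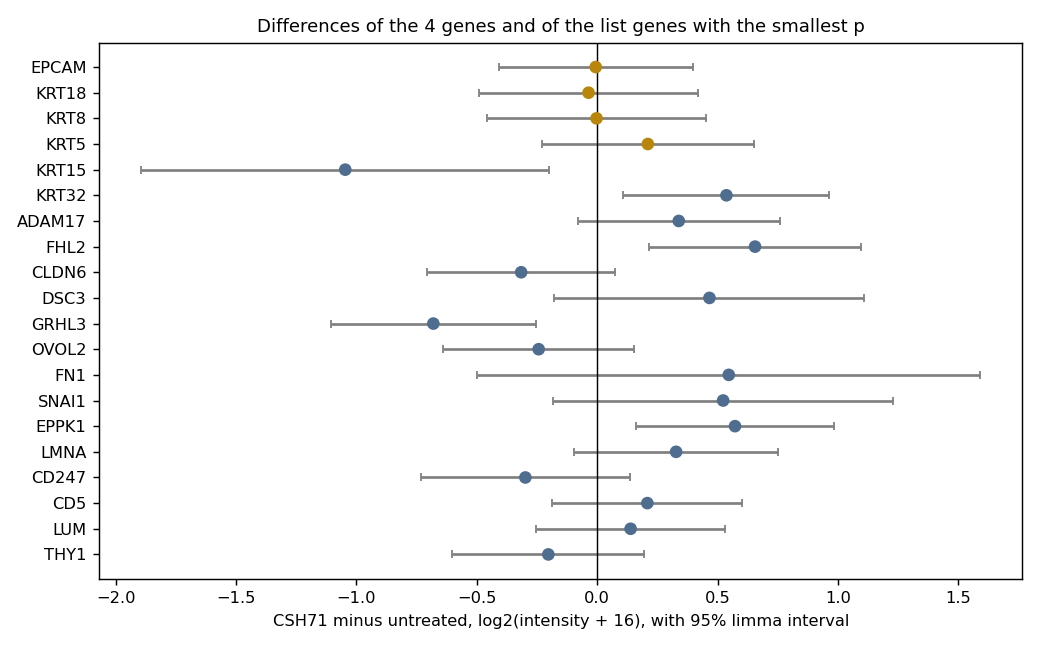
CSH71 minus untreated differences in log2(intensity + 16), with 95% limma intervals, for EPCAM, KRT18, KRT8 and KRT5 (gold) and for the genes with the smallest p in each of the 8 lists (blue). The intervals of all 4 gold genes include 0, those of KRT15, KRT32, FHL2, GRHL3 and EPPK1 do not, and 0 of the plotted genes passed the adjusted threshold.

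Likeness of pattern over the arrays was measured as the Euclidean distance between log2 values over the 4 arrays, each gene centred on its own mean. The nearest genes were EMBP1, COX4I1 and HSPD1 to EPCAM (distances of 0.011, 0.012 and 0.019), and ZNF444, NPAP1P9 and E4F1 to KRT18 (0.024, 0.025 and 0.025). To KRT8 they were STARD3NL, ATG10 and MAPK6 (0.017, 0.019 and 0.021), and to KRT5 they were MIR4478, FOXD1 and ETNPPL (0.022, 0.026 and 0.026). Of the 14884 genes, those within a distance of 0.1 numbered 286 for EPCAM, 136 for KRT18, 374 for KRT8 and 77 for KRT5.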

How the data were processed

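Each array contributed 1 linear intensity per probe set, as deposited by the authors. Affymetrix Expression Console is named per the submitters' processing notes; its version is not given in the sources used here, nor is how intensities were summarised, background-corrected or normalized. Symbols came from the platform annotation, updated through RefSeq (GRCh38.p14, for names alone): 16098 of 53617 had 1 symbol, 0 symbols changed, and 37519 had none. Where a gene had more than 1 probe set (779 genes), its brightest by mean represented it. Values were taken as log2(intensity + 16) and not normalized again; this scale understates changes of dim genes. limma 3.58.1 (R 4.3.3) compared the 2 groups over 14884 genes with Benjamini-Hochberg adjustment and 2-sided p-values. The procedure was also run on data simulated from its own fitted error model, which cannot show how well that model describes these arrays. An exact permutation test of 2 against 2 arrays cannot give a p below 0.333. The number of arrays limits the precision.

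The members and the 8 gene lists were chosen with earlier results of these data known. Named genes are the 4 members and the defining markers of each list, with its 2 other genes of smallest p and its 2 brightest others. The 3 genes nearest each member in pattern are also named. KRT1, the desmosomal genes named beside JUP and PKP2, and other genes named in counts of 5 or fewer, or among the 6 brightest, were chosen after their values were seen. Groups and replicate numbers come from sample titles. Alternatives were quantile normalization, median centring, a replicate block, removal of the dimmest 40% of genes, an intensity trend or robust prior, the mean of probe sets, all probe sets, pseudocounts of 1 and 64, and each array left out. Figures were drawn with matplotlib 3.10.9.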

Additional observations from a re-analysis of the deposited data

How the results depend on the processing

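None of the 4 genes was called by limma in any of the 15 alternatives. Differences of EPCAM, KRT18 and KRT8 were so close to 0 that their sign turned: EPCAM was at 0.0051 after quantile normalization and 0.014 after median centring, and KRT8 at 0.018 after median centring. With each array left out in turn, EPCAM ran from -0.085 to 0.073, KRT18 from -0.17 to 0.095, KRT8 from -0.17 to 0.16 and KRT5 from 0.087 to 0.33. The cause was not tested. The number of genes called among all named genes was 7 as reported, 28 with the replicate block, 27 after median centring, 11 without the dimmest 40% of genes, 143 with an intensity trend in the prior, 33 with a pseudocount of 64, and 0 to 29 with an array left out. It was 0 after quantile normalization, with a pseudocount of 1 and over all probe sets (927, 768 and 2367 at an unadjusted limma p under 0.05). It was 0 without untreated replicate 1 or untreated replicate 2 (794 and 609 at an unadjusted limma p under 0.05), 29 without CSH71 replicate 1 and 20 without CSH71 replicate 2. Of the genes in the 8 lists, 0 were called as reported and 1 with an intensity trend in the prior, which was KRT15; with an array left out 0 to 1 were called, KRT15 without CSH71 replicate 2 and FN1 without CSH71 replicate 1. FN1 was at 1.31 there and turned to -0.21 without CSH71 replicate 2. With the mean of its probe sets, KRT18 was at -0.16. Where an array was left out, the lone array of its group was assumed to vary like the other group. The median difference of the other keratins, -0.0043 as reported, was -0.071 after quantile normalization, 0.016 after median centring and -0.18 over the 7 left without the dimmest 40% of genes. It was 0.15 without CSH71 replicate 1, -0.097 without CSH71 replicate 2, 0.059 without untreated replicate 1 and -0.14 without untreated replicate 2. Replicate numbers are not stated to mark a shared batch, and deviations of same-numbered arrays correlated at -0.29 over genes. A crossed pairing, added after this was seen, called 0 genes (1291 at an unadjusted limma p under 0.05), and the replicate block changed no call of the 4 genes. Without a background level, the depth of the dim keratin signals is unknown.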

Other observations

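FN1, the gene of the matrix protein fibronectin, had intensities of 74.8 and 245 on the CSH71 arrays and 90.3 and 88.5 on the untreated arrays. CSH71 replicate 2 alone was high. The log2 difference was 0.55 ± 0.44 (SE; limma adjusted p = 0.999), -0.21 without CSH71 replicate 2 and 1.31 without CSH71 replicate 1 (adjusted p = 0.0418); in each of these the lone CSH71 array was assumed to vary like the untreated pair. DCN, the gene of the matrix proteoglycan decorin, was highest on CSH71 replicate 2 as well, with 26.2 and 42.9 with CSH71 and 23.1 and 19.2 without. Of the other fibroblast markers measured, LUM was highest there (48.5) and THY1 was lowest there (1111). CSH71 replicate 2 held the highest value of 32.8% of all genes not above the median gene on all arrays. Whether FN1 and DCN share a cause was not tested.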
